A study of Mus musculus with 2 samples.

Results

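The genes described here are 37 mouse genes of cholesterol and fatty acid synthesis, named by symbol and found in the deposited expression table by Entrez identifier. They are 37 of the 13056 genes with such an identifier among 24440 listed features, and all 37 passed the filter, a larger value of at least 1 FPKM (sequenced fragments relative to transcript length and library depth), as did 10645 genes in all. The T cells were wild-type CD4+ cells of C57BL/6 mice, 6 to 8 weeks old, kept for 48 h in T helper 17 (Th17) polarising culture. The 2 libraries differ in the antigen presenting cells (APCs) of the culture, which were wild type (WT) in the one and carried a transgene for OX40L, the ligand of the costimulatory receptor OX40, in the other (OX40L-TG). Each library came from 5000000 T cells, and neither the promoter of the transgene nor the number of mice behind a culture is given in the labels. With 1 library per condition there is no replicate check: every value below compares these 2 libraries, and no test between conditions was possible.

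Cells make cholesterol from acetyl-CoA by a long series of enzymes. The early steps build farnesyl diphosphate, the middle steps join it to squalene and close the ring to lanosterol, and the late steps trim lanosterol to cholesterol. The genes of these enzymes are driven by SREBP2, and those of fatty acid synthesis mainly by SREBP1, transcription factors that lie inactive in the endoplasmic reticulum. SCAP carries them to the Golgi for cleavage when sterols are low, and INSIG proteins hold SCAP back when sterols are high. T cells that have been activated raise both arms of lipid synthesis as they grow and divide.

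Ratios in plain FPKM are of the OX40L-TG-APC library over the WT-APC library. They were 2.04 to 4.60 for 12 of 19 sterol pathway enzymes and 3 of 4 fatty acid desaturases. For the others of these 2 groups they ran from 0.962 for Ggps1, which leads away from cholesterol, to 1.73 for Mvk. The 5 fatty acid genes that supply carbon or build or activate the chain had ratios of 1.22 to 1.51. Of the 37 genes, 14 were at least 2-fold higher on the log2(FPKM + 1) scale, on which all changes are given, against 2.26% of all genes, and none was at least 2-fold lower, against 1.32% of all genes. The 14 were 11 of the 19 sterol enzymes and 3 of the 9 fatty acid genes, and none of the 9 genes of SREBP control and sterol transport. In plain FPKM 35 of 37 were higher with OX40L-TG APCs, as were 68.3% of all genes, and 15 had a ratio of at least 2, against 4.08%. The median change of the 37 was 0.71, that of all genes 0.11, and 35 of 37 lay above the latter, as 50% of all genes do by definition.

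The libraries differ slightly in overall scale. Genes with at least 5 FPKM in both had a median ratio of 1.09, so ratios near this value match the typical gene. Setting that ratio to 1 left 12 of the 14 genes at 2-fold, against 1.81% of all genes. Setting the FPKM totals equal left 9, against 1.58%, and a pseudocount of 5 also left 9, against 0.949%. Depth, estimated from the steps of low FPKM values, came to roughly 24400000 fragments in the WT-APC sample against 27900000. The 95% exact Clopper-Pearson interval printed after a ratio covers counting error only and not variation between cultures. By it 35 ratios lay wholly above 1 and 33 wholly above 1.09. Intervals were not computed for all genes, so these counts have no share to be set against. In plain FPKM 68.3% of all genes were higher with OX40L-TG APCs.

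**Figure D1:**
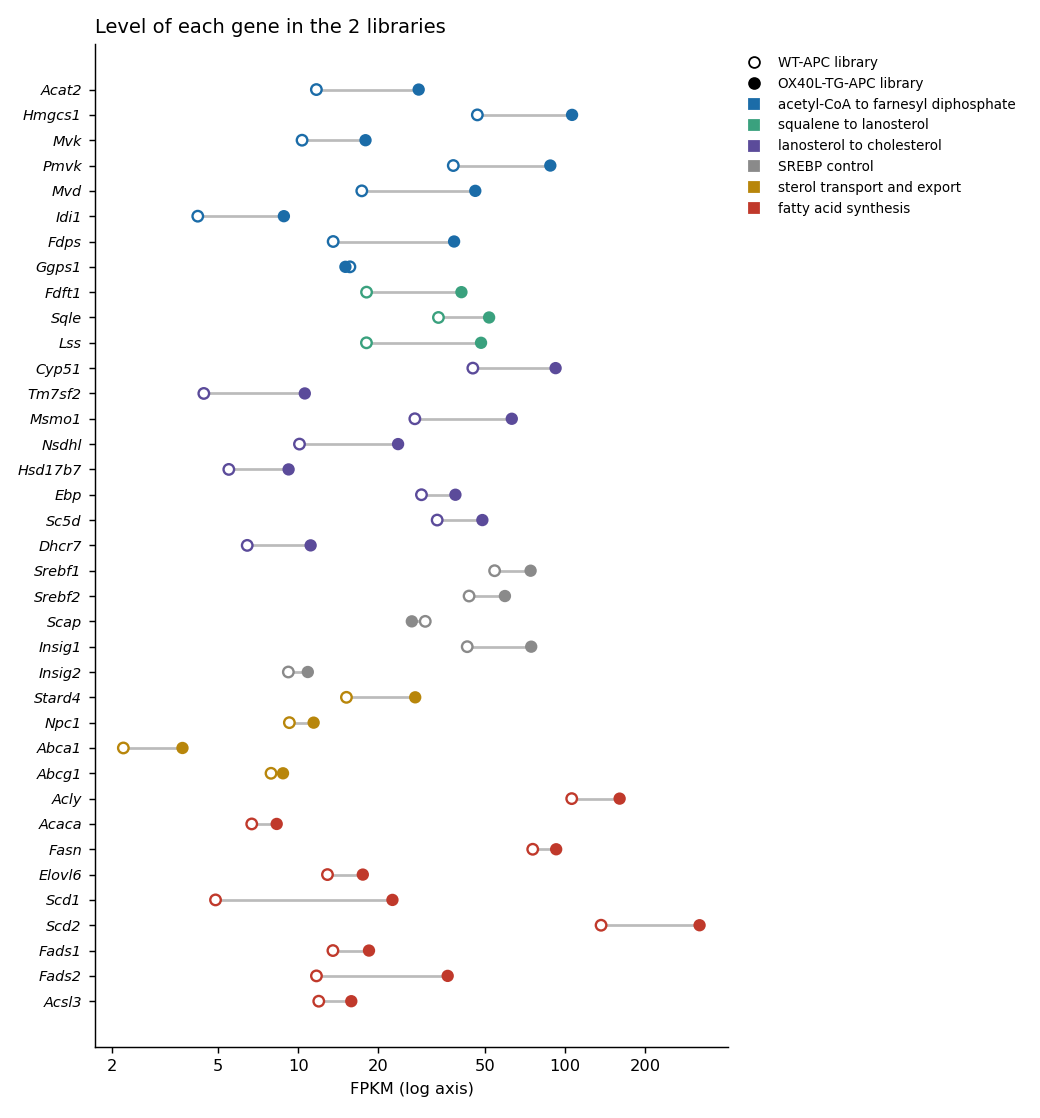
FPKM (log axis) of the 37 genes in the WT-APC library (open circles) and the OX40L-TG-APC library (filled circles), in pathway order and coloured by role. The filled circle lies to the right in 35 genes, and it lies to the left for Ggps1 and Scap.

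The 8 genes that lead from acetyl-CoA to farnesyl diphosphate and its geranylgeranyl branch held 5 at 2-fold, with a median change of 1.17. Acat2, which encodes the cytosolic thiolase of the first step, stood at 11.7 FPKM with WT APCs and 28.3 FPKM with OX40L-TG APCs, a ratio of 2.42 (2.21 to 2.65). Its printed locus also holds 6 other coding genes, among them its close copy Acat3 and the overlapping Tcp1, and how reads were shared between them is not given in the sources used here. Hmgcs1 (chromosome 13, 119690461 to 119708077; coordinates here follow GRCm38), the gene of HMG-CoA synthase, had the highest level of the sterol enzymes in both libraries, at 46.9 and 106 FPKM, a ratio of 2.26 (2.18 to 2.35). The mevalonate kinases differed in degree: Mvk, for the first phosphorylation, stood at 10.3 and 17.9 FPKM, which is a ratio of 1.73 (1.53 to 1.95), below that of Pmvk, for the next one, at 38.1 and 88.1 FPKM, a ratio of 2.31 (2.15 to 2.48). Their intervals do not overlap.

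Mvd, whose product makes isopentenyl diphosphate, was at 17.3 and 46.1 FPKM, with a ratio of 2.66 (2.45 to 2.90). Idi1, the isomerase gene, was the lowest of the sterol enzymes in both libraries, at 4.21 and 8.84 FPKM. Its plain ratio was 2.10 (1.84 to 2.41), yet its change of 0.92 fell short of 2-fold because the pseudocount weighs on low values. Fdps (chromosome 3, 89093587 to 89101967), which encodes farnesyl diphosphate synthase, had the highest ratio of the sterol enzymes at 2.84 (2.55 to 3.17), with 13.5 and 38.4 FPKM.

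Ggps1 stood apart from these. It encodes the enzyme that extends farnesyl diphosphate to geranylgeranyl diphosphate, the lipid used to anchor small GTPases, and so leads away from cholesterol. Its level was 15.6 FPKM with WT APCs and 15.0 FPKM with OX40L-TG APCs, a ratio of 0.962 (0.898 to 1.03), the one interval of the 37 that holds 1. Like that of Scap, this interval lay wholly below 1.09, the ratio of the typical gene. Fdps was at 0.866 times the level of Ggps1 in the WT-APC library and at 2.55 times in the other.

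At the entry to the sterol branch Fdft1, the squalene synthase gene, had 18.05 and 40.9 FPKM and a ratio of 2.27 (2.14 to 2.40). Lss, whose product closes the ring to lanosterol, started from the same level, 18.03 FPKM, and stood at 48.5 FPKM with OX40L-TG APCs, a ratio of 2.69 (2.56 to 2.83). Sqle lies between these steps and encodes squalene epoxidase, a rate-limiting enzyme of the pathway. It was the highest of the 3 in both libraries and differed least, at 33.6 and 52.0 FPKM, a ratio of 1.55 (1.47 to 1.63). The printed locus of Fdft1 also holds the coding genes Ctsb, Gata4 and Neil2, and that of Lss holds Spatc1l.

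The 8 late enzymes fell into 2 sets that follow the order of the reactions. The first 4, from the demethylation of lanosterol to the decarboxylating dehydrogenase, were each at least 2-fold higher as reported, but Msmo1 alone of them kept this both with FPKM totals set equal and with a pseudocount of 5. With equal totals the changes of Cyp51, Tm7sf2 and Nsdhl were 0.84, 0.93 and 0.98, and with a pseudocount of 5 they were 0.96, 0.73 and 0.92. Those of Msmo1 were 1.001 and 1.07, so with equal totals it barely passed and lay close to Nsdhl. Cyp51, the lanosterol demethylase gene, stood at 45.2 and 92.2 FPKM, which is a ratio of 2.04 (1.97 to 2.12). Tm7sf2, a sterol reductase gene, was at 4.43 and 10.6 FPKM, with a ratio of 2.39 and a wide interval (1.99 to 2.88). Msmo1, the methyl oxidase gene, had a ratio of 2.31 (2.17 to 2.46) at 27.4 and 63.2 FPKM, and Nsdhl, the dehydrogenase gene, one of 2.34 (2.12 to 2.59) at 10.1 and 23.7 FPKM.

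The last 4 all stayed under 2-fold. Hsd17b7, a ketoreductase gene, had 5.50 and 9.21 FPKM and a ratio of 1.68 (1.52 to 1.85). Ebp, the sterol isomerase gene, had the smallest ratio of the late steps at 1.34 (1.25 to 1.44), with 29.0 and 38.9 FPKM. Sc5d, the desaturase of the sterol ring, had 33.2 and 49.03 FPKM and a ratio of 1.48 (1.42 to 1.54). Dhcr7, which makes cholesterol from 7-dehydrocholesterol, stood at 6.44 and 11.1 FPKM, which is a ratio of 1.73 (1.54 to 1.94). The lowest bound of the first set, 1.97 for Cyp51, lies just above the highest bound of the second, 1.94 for Dhcr7. This split was noticed in the values, and Tm7sf2 and Nsdhl lie in printed loci that hold another coding gene. Lbr, named here outside the rule because its product catalyses the same step as that of Tm7sf2, was far more abundant (97.03 and 115 FPKM) with a ratio of 1.18 (1.15 to 1.22).

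**Figure D2:**
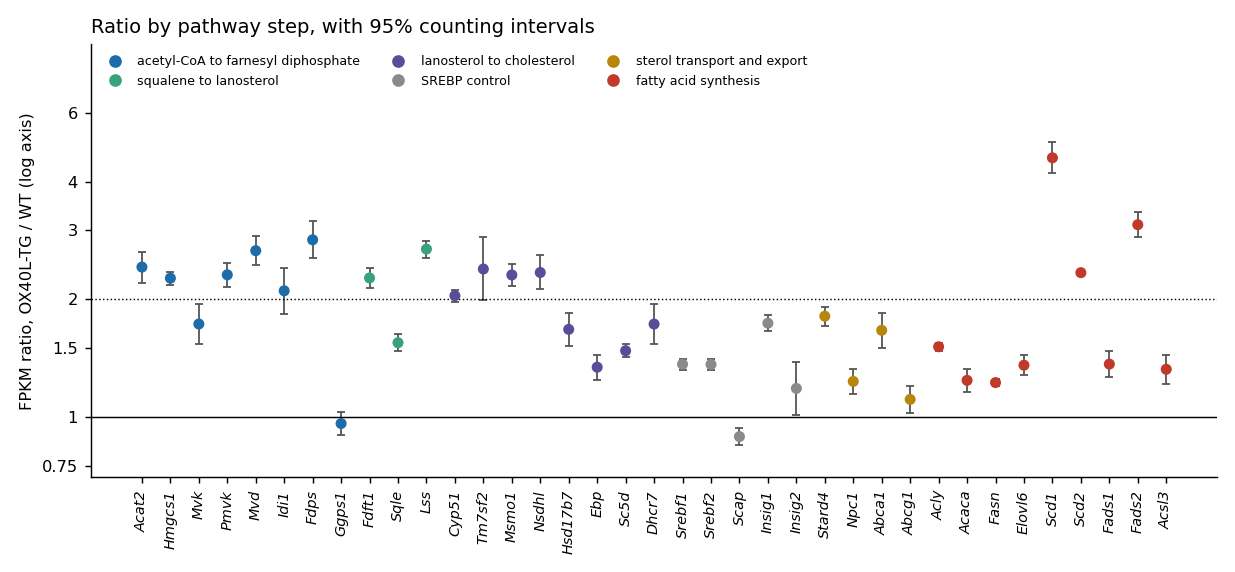
Ratio of OX40L-TG-APC to WT-APC FPKM (log axis) for each gene in pathway order, with bars for the 95% counting interval, a solid line at 1 and a dotted line at 2. Scd1 (4.60) and Fads2 (3.10) lie highest, and Scap (0.891) lies lowest.

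Among the genes of SREBP control the feedback gene Insig1 had the highest ratio. It stood at 43.02 FPKM with WT APCs and 74.7 FPKM with OX40L-TG APCs, a ratio of 1.74 (1.66 to 1.82). Its paralogue Insig2 was lower in level and nearer to the typical gene, at 9.19 and 10.9 FPKM, a ratio of 1.18 (1.01 to 1.38). Insig1, itself a target of SREBP, was thus at 4.68 times the level of Insig2 with WT APCs and 6.87 times with OX40L-TG APCs.

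The SREBP genes themselves had equal ratios. Srebf1 was at 54.5 and 74.3 FPKM, with a ratio of 1.36 (1.32 to 1.41), and Srebf2 at 43.7 and 59.6 FPKM, a ratio of 1.36 (1.32 to 1.41), so Srebf1 was at 1.25 times the level of Srebf2 in each library. The table gives 1 value per gene, so the Srebf1 transcripts for SREBP1a and SREBP1c were not told apart. The printed locus of Srebf1 also holds another coding gene, Rai1. Scap had 29.95 and 26.7 FPKM and a ratio of 0.891 (0.847 to 0.936), and was the one gene of the 37 whose interval lay wholly below 1. These values are transcript levels, whereas SREBP activity is set by cleavage of the protein, which was not measured.

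Of the 4 genes of sterol transport, Stard4, which encodes a cytosolic cholesterol carrier and is a known SREBP2 target, had the highest ratio, 1.81 (1.71 to 1.91), at 15.2 and 27.5 FPKM. Npc1, for the export of cholesterol from lysosomes, stood at 9.27 and 11.4 FPKM, which is a ratio of 1.23 (1.14 to 1.33), in a locus of 4 coding genes. The efflux pump genes Abca1 and Abcg1 are classical targets of the sterol-sensing receptor LXR. Abca1 was the lowest of all 37, at 2.21 and 3.69 FPKM, a ratio of 1.67 (1.5 to 1.85). Abcg1 was at 7.91 and 8.78 FPKM, with a ratio of 1.11 (1.03 to 1.20) that includes the value of the typical gene, and with the FPKM totals set equal its change was -0.03, of the opposite sign.

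The fatty acid genes are given by the step they serve, a grouping that was not planned. Those that supply carbon and build or activate the chain were all under 2-fold. Acly, which makes cytosolic acetyl-CoA for both arms, was the most abundant of them at 106 and 160.3 FPKM, a ratio of 1.51 (1.48 to 1.55). Acaca, the gene of acetyl-CoA carboxylase, had 6.70 and 8.31 FPKM and a ratio of 1.24 (1.16 to 1.33). Fasn, the fatty acid synthase gene, stood at 75.7 and 92.7 FPKM, which is a ratio of 1.22 (1.20 to 1.25). Elovl6, an elongase gene (12.9 and 17.5 FPKM), and Acsl3, an acyl-CoA synthetase gene (11.9 and 15.8 FPKM), had ratios of 1.36 (1.28 to 1.44) and 1.32 (1.21 to 1.44). The printed locus of Acsl3 also holds the coding gene Utp14b.

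The desaturases, which put double bonds into the chain, held the largest differences of the whole set, those of Scd1 and Fads2. Scd1 (chromosome 19, 44394449 to 44407709), a stearoyl-CoA desaturase gene, stood at 4.90 FPKM with WT APCs and 22.6 FPKM with OX40L-TG APCs, a ratio of 4.60 (4.21 to 5.04). It ranked 30 among all 10645 genes by change. Its neighbour and paralogue Scd2 was the most abundant of the 37, at 137 and 319 FPKM, a ratio of 2.34 (2.30 to 2.38). Scd2 was the more abundant form in both libraries, at 27.9 times the level of Scd1 with WT APCs and 14.2 times with OX40L-TG APCs.

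Fads2 (chromosome 19, 10041547 to 10101503), whose product starts the desaturation of polyunsaturated fatty acids, was at 11.7 and 36.3 FPKM, with a ratio of 3.10 (2.88 to 3.35), in a printed locus that also holds its paralogue Fads3. Fads1, for the later desaturation step, had 13.5 and 18.4 FPKM and a ratio of 1.37 (1.27 to 1.47). This lay within the range of the fatty acid genes that are not desaturases. The order of Fads1 and Fads2 differed between the libraries, from 1.15 times as much Fads1 as Fads2 in the WT-APC library to 0.507 times in the other.

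By medians the sterol enzymes differed more than the fatty acid genes, at 1.09 (from -0.05 to 1.44) against 0.42 (from 0.27 to 2.0), a difference of 0.67. By means the difference was 0.15, since the desaturases raise the mean of the fatty acid genes. The ranges overlap: 17 of the 19 sterol enzymes lay above the median fatty acid gene, while none lay above Scd1. Of the 19, 16 lay above all 5 fatty acid genes that are not desaturases. That subset was not planned, and it leaves out the 3 fatty acid genes at 2-fold. Summed FPKM was 389 and 788 for the sterol enzymes, a ratio of 2.03, 167 and 397 for the 4 desaturases, a ratio of 2.38, and 213 and 295 for the other 5 fatty acid genes, a ratio of 1.38. These sums are on the plain FPKM scale and are led by their most abundant genes. Without the 9 genes whose printed loci hold another coding gene, 8 of 28 were at 2-fold and the median difference was 0.40. Without the 18 whose loci overlap any other annotated gene, small RNAs included, 5 of 19 were at 2-fold and the difference was -0.42, with Fasn and Scd1 as the remaining fatty acid genes.

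**Figure D3:**
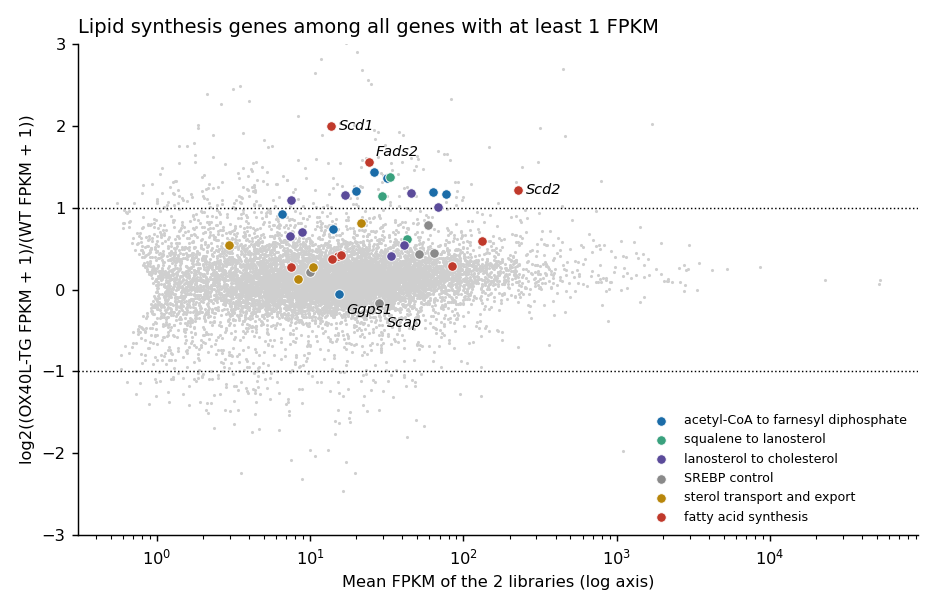
Change, as log2 of the OX40L-TG-APC over the WT-APC level with 1 FPKM added to each, against mean FPKM (log axis) for the genes that passed the filter (grey) and the 37 genes (coloured by role), with dotted lines at 2-fold either way and 15 genes with changes beyond 3 outside the plot. The coloured points lie mostly above the grey mass, and 14 lie above the upper line.

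The authors' deposited table of their own comparison listed 12 of the 37, all as higher, against 2.32% of all genes that it listed as higher. In the authors' deposited table the log2 ratios ran from 1.06 for Cyp51 to 2.24 for Scd1, and the p-values, which compare these 2 libraries and not the conditions, from 5e-05 for Scd1 to 0.02855 for Idi1. Of the 14 genes at 2-fold here 11 were listed there, the exceptions being Acat2, Fdft1 and Tm7sf2. The one further gene was Idi1, whose log2 ratio in the authors' deposited table was 1.10.

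Promoters were read for the letters that SREBP and its partner NF-Y are known to favour. NF-Y binds CCAAT boxes beside the sterol regulatory element of many cholesterol genes. RefSeq windows of GRCm38.p6, from 250 bases before to 50 after each start site, were held for 28 of the 37 genes and not for Fdps, Fdft1, Sqle, Stard4, Npc1, Abcg1, Scd1, Scd2 and Fads1. CCAAT, on either strand, was in a window of 15 of 16 sterol enzymes (93.8%), with Acat2 the exception, and of 3 of 6 fatty acid genes, against 43.8% of 8412 coding genes with at least 1 FPKM and 41.1% of all 27025 genes with a window. Per window the shares were 78.9% for the sterol enzymes and 37.4% for all 32851 windows. The sterol element core TCACNCCAC was in Hmgcs1 alone, 1 of 28 genes, against 1.44% of all genes with a window. The E-box CACGTG was in 6 of 28 genes (21.4%), against 12.3% of the coding genes with at least 1 FPKM and 8.09% of all genes, and in 7 of 36 windows against 7.15% of all windows. The LXR-type direct repeat of AGGTCA with 4 bases between was in none of the 28, against 0.0148% of all genes. At so low a share its absence says nothing about these genes. CCAAT was in 8 of 10 genes at 2-fold and in 14 of 18 others, and CACGTG in 0 of 10 and 6 of 18. A match is a match of letters and not evidence of binding.

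The 250 bases before the start site are shown for 4 genes, 5′ to 3′ on the strand of the gene, with capitals for CCAAT, read as ATTGG when on the other strand, and for the sterol element core. Hmgcs1 is shown for its sterol element, 137 bases before the start, between CCAAT boxes 176 and 45 bases before it, and Mvk for its 5 CCAAT boxes. Ggps1 is shown because it has 3 CCAAT boxes and a ratio of 0.962, and Fads2 because it has a ratio of 3.10 and none of these letters. They lie at chr13:119690101-119690350 (plus strand), chr5:114444019-114444268 (plus), chr13:14063489-14063738 (minus) and chr19:10101504-10101753 (minus).
Hmgcs1: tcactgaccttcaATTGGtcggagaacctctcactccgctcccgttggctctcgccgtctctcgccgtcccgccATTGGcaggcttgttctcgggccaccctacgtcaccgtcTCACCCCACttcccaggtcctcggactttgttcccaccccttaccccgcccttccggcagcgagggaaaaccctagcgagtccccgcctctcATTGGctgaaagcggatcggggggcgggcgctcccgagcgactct
Mvk: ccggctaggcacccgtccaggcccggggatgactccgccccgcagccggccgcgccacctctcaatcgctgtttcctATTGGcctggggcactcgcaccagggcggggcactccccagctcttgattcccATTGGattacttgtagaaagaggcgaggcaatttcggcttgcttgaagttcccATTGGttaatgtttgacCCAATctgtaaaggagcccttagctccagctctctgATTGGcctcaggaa
Ggps1: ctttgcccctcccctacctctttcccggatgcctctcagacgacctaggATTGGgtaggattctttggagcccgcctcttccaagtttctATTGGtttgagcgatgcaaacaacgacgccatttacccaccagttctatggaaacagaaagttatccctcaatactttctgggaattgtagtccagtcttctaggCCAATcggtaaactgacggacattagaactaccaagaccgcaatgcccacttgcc
Fads2: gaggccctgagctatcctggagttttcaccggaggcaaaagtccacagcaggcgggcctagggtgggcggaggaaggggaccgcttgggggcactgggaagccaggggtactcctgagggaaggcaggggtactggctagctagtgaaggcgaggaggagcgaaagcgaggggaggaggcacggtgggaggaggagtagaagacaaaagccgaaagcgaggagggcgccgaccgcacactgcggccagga

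Genes of the same pathway outside the 37 were read from lists. Of 13 further genes of sterol synthesis and uptake 1 was at 2-fold and 12 lay above the all-gene median, with a median change of 0.50. Vldlr, for a lipoprotein receptor, stood at 1.75 and 5.08 FPKM, which is a ratio of 2.90 (2.52 to 3.36). Lowest were Npc2 (ratio 1.17), the lysosomal partner of Npc1, and Lipa (0.975), the lysosomal lipase gene.

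The median gene of the machinery that handles SREBP lay close to the typical gene. Among 16 further regulators the median change was 0.07, with 7 above the median of all genes and 1 at 2-fold. That gene was Lpin1, for a phosphatidate phosphatase that also acts on SREBP in the nucleus, at 8.25 and 21.7 FPKM, a ratio of 2.63 (2.43 to 2.85). Sec23a, a coat gene of the vesicles that leave the endoplasmic reticulum, had a ratio of 1.29, Sec24a, another one, 0.828, and Fbxw7, for the ligase adaptor that marks nuclear SREBP for decay, 0.801. Of 10 LXR genes found 8 passed the filter, with a median of 0.00 and none at 2-fold. They ran from Apoe (5.65 and 3.03 FPKM) and Mylip (3.54 and 2.42 FPKM) to Lpcat3 (25.6 and 31.2 FPKM) and Rxra (2.06 and 3.97 FPKM).

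Past the point where Ggps1 leaves the pathway the isoprenoid genes lay near the typical gene. The 15 genes of dolichol, ubiquinone, haem A and protein prenylation had a median change of 0.14 and none at 2-fold. Lowest were Cox10, the haem A gene of the list (ratio 0.931), and Dolk (0.932). Highest were Rabggta (1.25) and Pdss1 (1.40). Of 19 kept genes of fatty acid synthesis outside the 37, none was at 2-fold and 15 lay above the all-gene median, with a median of 0.33. Fabp5, a fatty acid carrier gene, stood at 15.1 and 30.4 FPKM, with a plain ratio of 2.01 (1.78 to 2.28) and a change of 0.96. Acss2, which makes acetyl-CoA from acetate and is an SREBP target, had 6.51 and 12.6 FPKM and a ratio of 1.94 (1.73 to 2.16). Oxsm, of the mitochondrial pathway (ratio 1.00), and Mlx, for a sugar-sensing transcription factor partner (0.956), had the lowest changes.

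**Figure D4:**
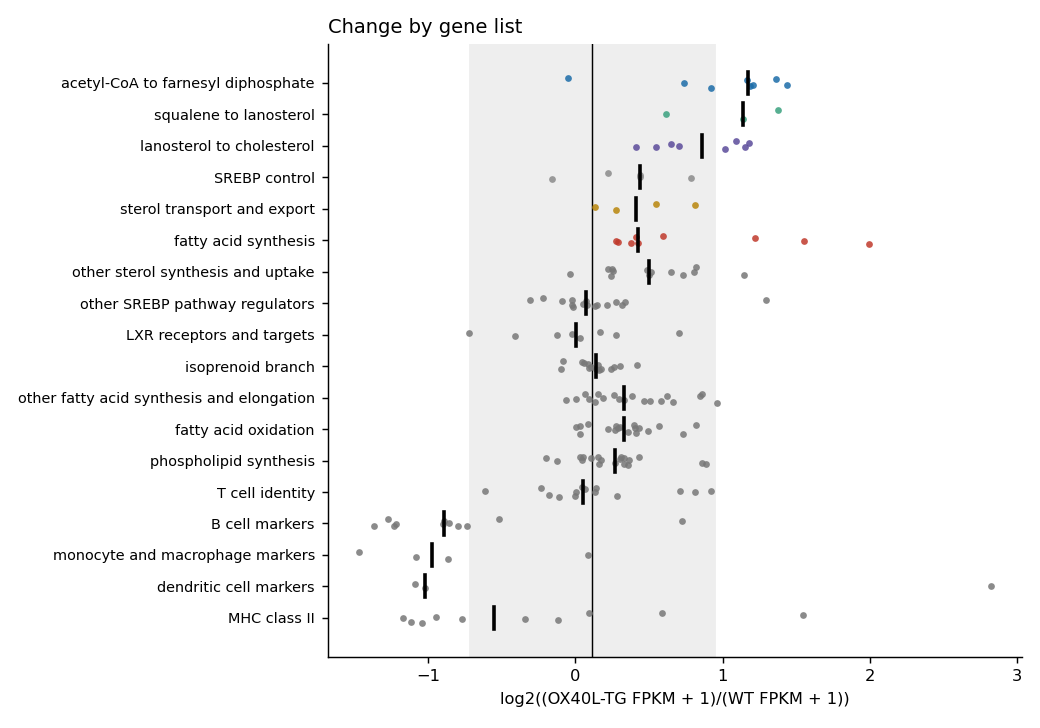
Change on the log2(FPKM + 1) scale, OX40L-TG-APC over WT-APC, of each kept gene (points) with the median of each list (black bars), the median of all genes (line, 0.11) and their central 95% (grey, -0.71 to 0.95). The early and middle sterol steps have medians above the grey band, at 1.17 and 1.14. Without loci that hold another coding gene the early median was 1.16. Of the middle steps Sqle alone was then left, with a change of 0.62, within the band shown. B cell, monocyte and dendritic lists have medians below zero, over 11, 4 and 3 kept genes. Summed FPKM of the kept dendritic genes was higher with OX40L-TG APCs, at 19.02 and 28.7.

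Markers of other cell types also differed between the libraries. T cell genes, 14 of 14 kept, summed to 2824 FPKM with WT APCs and 3084 FPKM with OX40L-TG APCs (median change 0.06), led by Cd2 and Cd247, and Cd4 stood at 201 and 246 FPKM. B cell markers summed to 61.6 and 26.6 FPKM over 11 of 12 kept genes, among them Cd79b (11.9 and 6.40 FPKM), with 4 at least 2-fold lower. Fcmr (0.617 and 1.68 FPKM), named after its values were seen, went the other way and passed the filter through the OX40L-TG-APC library alone. Vpreb3 (1.37 and 0.305 FPKM), also named so, passed it through the WT-APC library alone. Of 12 monocyte and macrophage markers 4 were kept and summed to 11.2 and 4.69 FPKM, with 2 at least 2-fold lower. Lyz2 (4.55 and 1.01 FPKM) and Cd68 (2.25 and 2.44 FPKM) had the highest means over both libraries. Tyrobp (2.87 and 0.827 FPKM) and Mpeg1 (1.58 and 0.413 FPKM), added after their values were seen, were lower with OX40L-TG APCs. Both passed the filter through the WT-APC library alone. C1qb, below the filter, was listed at 0 in the OX40L-TG-APC library against 0.17 FPKM in the other. Of 10 dendritic cell markers 3 were kept, led by Cd86 (13.4 and 6.07 FPKM) and by Batf3 (2.18 and 21.5 FPKM), which T helper cells can also express. The 3 kept genes summed to 19.02 and 28.7 FPKM, and Batf3 was the only one higher with OX40L-TG APCs. Its printed locus also holds other coding genes. Flt3 (3.46 and 1.09 FPKM), named after its values were seen, was lower, as was Cd86. Clec9a, Siglech and Clec10a were listed at 0 with OX40L-TG APCs and Cd209a with WT APCs. Each of these had at most 0.0511 FPKM in the other library, too little to compare. MHC class II genes differed in both directions, with 1 of 10 at least 2-fold higher and 3 at least 2-fold lower. Their sum, led by Cd74 and H2-Ab1, was 394 and 282 FPKM. H2-Oa (6.15 and 19.9 FPKM) was the higher one and H2-Aa, H2-Eb1 and Ciita were the lower ones, named after their values were seen. In such bulk samples fewer cells of a type and less RNA per cell cannot be told apart, and the part of these cells in the lipid gene levels was not tested.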

How the data were processed

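RNA from 2 T cell cultures was made into Illumina TruSeq libraries from 1 µg of total RNA, per the labels' protocols. The authors deposited FPKM per gene, made with TopHat2 and Cuffdiff, and the build mm9, as the submitters' processing notes name them. Their versions, the gene annotation and the strand setting are not given in the sources used here. The authors deposited a second table with their FPKM, the log2 ratio and a p-value in 398 rows, per the file headers. For the 12 genes described here that it lists, its WT-APC FPKM is 0.976 times, and its OX40L-TG-APC FPKM 0.999 times, the value used here. Of the WT-APC values used here, 39.6% have a seventh digit, and that digit is 5 in 98.9% of them, as in means of a pair of six-digit numbers; what was averaged is not stated. Printed starts lay within 1 bp of GRCm38 genes for 21 of 37, so coordinates, as the authors' table prints them, follow GRCm38.

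Symbols came from NCBI RefSeq (GRCm38.p6), which held 13030 of 13056 Entrez identifiers. Change was log2 of the FPKM ratio with a pseudocount of 1, for genes whose larger value was at least 1 FPKM. Because there was 1 library per condition, no test was run. The depth ratio, 1.14, came from 416 genes with 1 RefSeq-matched transcript of at least 1500 bases and under 0.3 FPKM, of which 65.4% had whole-number fragment ratios within 0.2%. Fragments per gene used GENCODE lengths of RefSeq-matched transcripts, uncorrected for fragment length. The steps were tested on simulated data. Python 3.11.15, pandas 2.3.3, NumPy 2.4.6 and SciPy 1.17.1 were used.

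The 37 genes and all lists were chosen with earlier results of these data known. All 37 are named; each lipid list names its 2 highest and 2 lowest changes, each cell type list its 2 most abundant genes. Some genes that this rule would name are not reported here. Alternatives were the pseudocount, the filter, the scaling, the mean, the authors' values, shared loci and, added after seeing the data, the plain ratio and loci shared with coding genes.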

Additional observations from a re-analysis of the deposited data

How the results depend on the processing

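The count of 14 genes at 2-fold was 9 with a pseudocount of 5 FPKM, 9 with FPKM totals set equal, 5 without loci that overlap any other annotated gene and 8 without loci that hold another coding gene, an alternative chosen after seeing the data. No gene was at least 2-fold lower under any alternative run. The sterol enzyme median of 1.09 was 0.92 with a pseudocount of 5, 0.98 with the median ratio set to 1, 0.93 with equal totals, 0.94 as a mean, 0.72 without the overlapping loci and 0.83 without loci of coding genes. The fatty acid median of 0.42 was 0.31 with the median ratio set to 1, 0.25 with equal totals, 0.79 as a mean and 1.14 without the overlapping loci. Their difference of 0.67 was 0.15 by means, 0.40 without loci of coding genes and -0.42 without the overlapping loci, where 12 sterol and 2 fatty acid genes were left. For all genes, the share of calls that were higher was 63.1%, and 52.7% with the median ratio set to 1 or 47.3% with equal totals; all-gene calls numbered 241 higher and 141 lower, and 101 and 39 with a pseudocount of 5. Cyp51 and Tm7sf2 left the 2-fold set when the median ratio was set to 1, Fdft1, Cyp51, Tm7sf2 and Nsdhl left it with equal totals (with Hmgcs1) and with a pseudocount of 5 (with Acat2), and Idi1 entered it with a pseudocount of 0.1, by the plain ratio and in the authors' deposited table. The filter on low values changed no count of the 37. No paired analysis was possible because each condition has 1 library. Counting error limits the genes of low level most, Tm7sf2 among them, and variation between cultures is not known.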

Other observations

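Genes that burn fatty acids and genes that build phospholipids were read beside the synthesis genes. Of 18 kept genes of fatty acid oxidation none was at 2-fold, 14 lay above the all-gene median and the median change was 0.33, close to that of the further fatty acid synthesis genes. Acaa2, a mitochondrial thiolase gene, stood at 25.5 FPKM with WT APCs and 45.8 FPKM with OX40L-TG APCs, and Eci1, an enoyl-CoA isomerase gene, at 9.08 and 15.7 FPKM. The carnitine carrier gene Slc25a20 (18.7 and 18.8 FPKM) and Hadha, for the trifunctional protein (46.5 and 47.5 FPKM), had the lowest changes.

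Phospholipid synthesis held 19 kept genes with a median of 0.27, with 13 above the all-gene median and none at 2-fold. The ethanolamine branch gene Pcyt2 stood at 35.03 and 64.3 FPKM, which is a ratio of 1.84 with a counting interval of 1.73 to 1.95. Pemt, which methylates phosphatidylethanolamine to phosphatidylcholine, was low, at 1.72 and 4.03 FPKM, with a wider interval of 1.63 to 3.48. Pisd (18.8 and 16.2 FPKM) and Cdipt (49.2 and 45.1 FPKM) were lower with OX40L-TG APCs.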
